A study of Mus musculus with 12 samples.

Results

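The lipogenesis genes described here are 10 genes of fatty acid and triglyceride synthesis, chosen by name: Acly, Acaca, Acacb, Fasn, Elovl6, Scd1, Dgat2, Srebf1, Mlxipl and Thrsp. They are 10 of the 55414 genes in the count table, and all 10 were among the 15912 genes tested between the groups. RNA-seq was performed on the inferior vena cava (IVC) of 12 wild-type C57BL/6J mice aged 10 weeks, 7 days after an operation. The AVF group of 6 mice had a fistula between the aorta and the IVC made by needle puncture, and the sham group of 6 mice had the same surgery without the puncture. Each group held 3 female and 3 male mice, with 1 library per mouse, and the samples are named by their number in the labels. AVF males were #04, #05 and #06, AVF females #07, #09 and #11, sham males #16, #17 and #18, and sham females #19, #22 and #23.

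Lipogenesis turns surplus carbon from sugar into fat. Citrate leaves the mitochondria and is cleaved to acetyl-CoA, which is carboxylated to malonyl-CoA, built into palmitate, lengthened, desaturated and finally joined to glycerol as triglyceride. The pathway is most active in liver and in fat, where SREBP-1 responds to insulin and ChREBP to glucose. A large vein is surrounded by perivascular fat, whose adipocytes use the same route.

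The libraries held 15177881 to 22717423 counts. The share of ribosomal RNA was 46.0% in #07 and 2.39% to 12.6% in the other 11 libraries. Levels are given as normalized CPM, counts scaled to the library size with TMM factors of edgeR. On this scale 3 counts corresponded to 0.127 to 0.323, depending on the library, and every value of the 10 genes was above this. Markers of endothelium and smooth muscle were present in every library, with a summed level of 3431 to 5789 normalized CPM over 8 genes, and so were 10 white adipocyte markers, with 3550 to 8292. The 10 hepatocyte markers summed to 3216 normalized CPM in #05 and 9653 in #09, against 1.61 to 7.65 in the other 10 libraries. These 2 AVF libraries stood apart, and the comparison of AVF with sham is given with and without them.

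None of the 10 lipogenesis genes passed edgeR's quasi-likelihood test between AVF and sham, although all 10 had a lower fitted level in AVF. The result depended on the test. The exact test of edgeR, which the study used for AVF against sham, called 5 of the 10 lower at the same adjusted p. The share of all genes called by the exact test was not counted. With edgeR's quasi-likelihood test and an adjusted p under 0.05, 0 of the 10 were lower in AVF and 0 were higher, where 5.13% of all tested genes were lower and 8.63% were higher. At an unadjusted p under 0.05, 5 of the 10 were lower: Acly, Acacb, Elovl6, Dgat2 and Mlxipl. At that threshold 2413 of all 15912 tested genes were lower in AVF and 2610 were higher. The median log2 fold change of the 10 was -0.91, against -0.01 over all tested genes. The genes other than Srebf1 varied together from mouse to mouse, so their equal signs are not separate observations. The 10 genes also varied widely between mice of the same group: the median SD of log2 normalized CPM over the sham mice was 1.08, against 0.27 over all tested genes, and over the AVF mice it was 0.68 against 0.29. For none of the 10 did every AVF sample lie below every sham sample, which held for 1.5% of all tested genes. In these bulk samples, fewer cells of a type and less RNA per cell cannot be told apart.

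**Figure D1:**
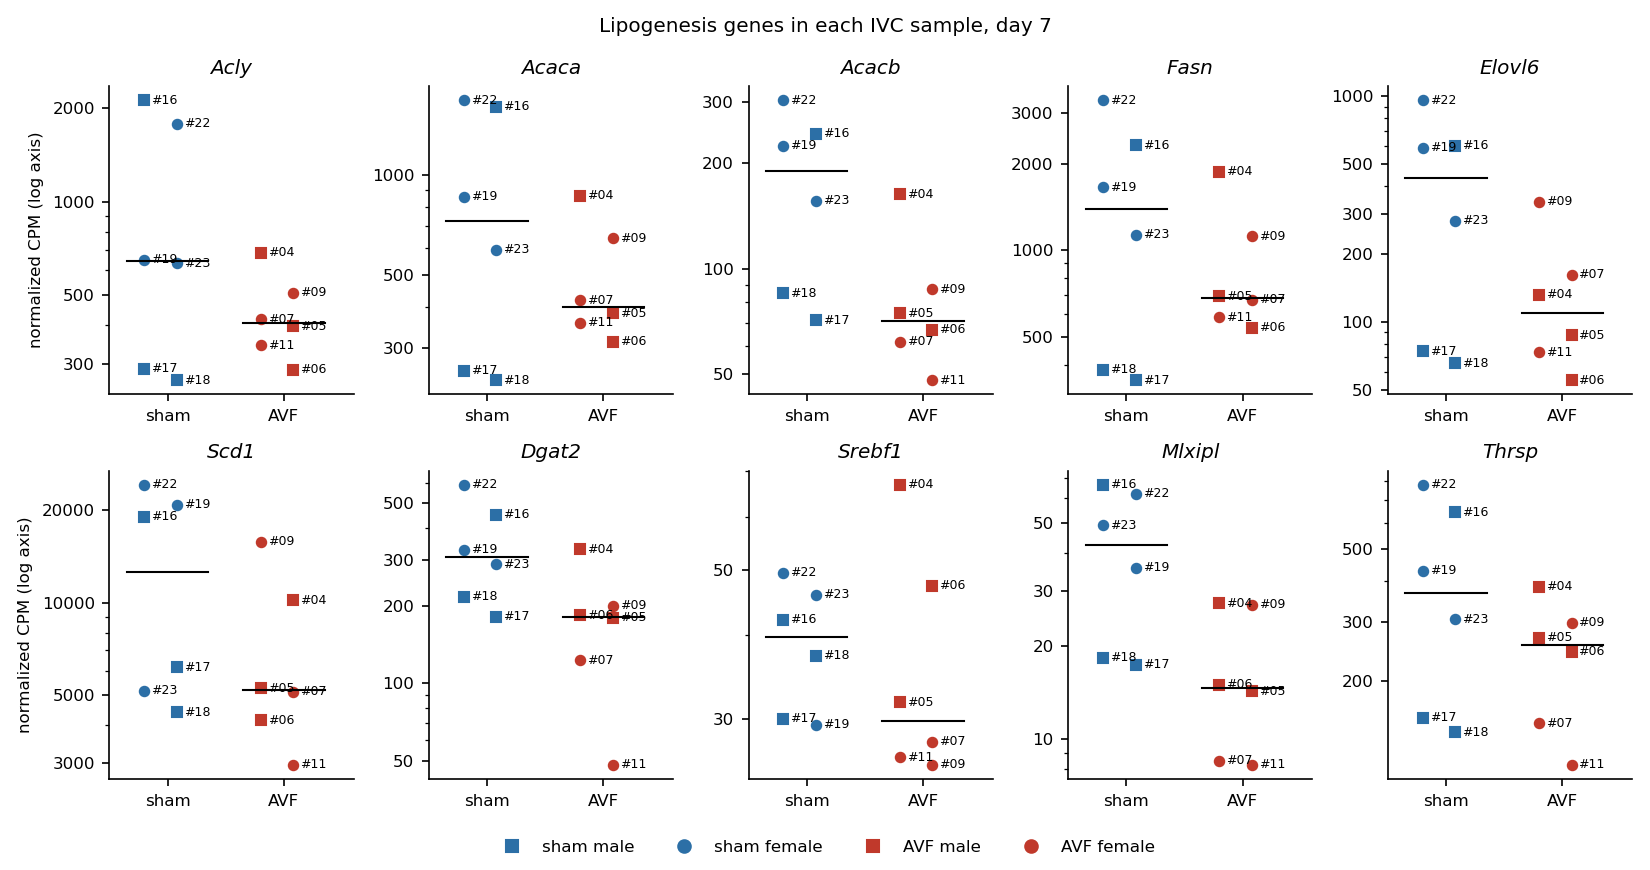
Normalized CPM (log axis) of each of the 10 genes in every sample, in sham (blue) and AVF (red), with squares for males, circles for females, sample numbers beside the points and a line at the median. Samples #16 and #22 were the highest of the sham group and #17 and #18 the lowest for 8 of the 10 genes, and the groups overlap in all 10 panels.

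The genes lie at separate places in the genome. On GRCm39, the build of the files, Srebf1 is at chr11:60089913-60113407 on the minus strand, Acaca at chr11:84020476-84292477 on the plus strand, Acly at chr11:100367165-100440756 on the minus strand and Fasn at chr11:120696672-120715995 on the minus strand. Acacb is at chr5:114284307-114388822 and Mlxipl at chr5:135118744-135168615, both on the plus strand. Thrsp is at chr7:97062139-97066937 and Dgat2 at chr7:98802491-98831991, both on the minus strand. Elovl6 is at chr3:129326004-129432144 on the plus strand and Scd1 at chr19:44382894-44399154 on the minus strand. The counts cover the exons of the whole gene, so its isoforms are not told apart.

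The promoters of these genes do not share a single arrangement of letters. RefSeq gave 11 start sites for 8 of the 10 genes on the older build GRCm38.p6, and none was used for Scd1 and Dgat2. The 250 bases before each start were searched on both strands for CCAAT (the CCAAT box, the motif of NF-Y), GGGCGG (the GC box of the Sp factors), CACGTG (the E-box, a motif of USF and other bHLH factors) and TCACNCCAC (a sterol element of the SREBP type). Fasn and Acly are shown as 2 enzymes whose levels varied together, Mlxipl as the gene nearest to the threshold, and Srebf1 as the gene that varied least with the others. Each sequence runs 5′ to 3′ on the strand of the gene and ends at the base before the start, and capitals mark the motifs.
Fasn, chr11:120824548-120824797, minus strand: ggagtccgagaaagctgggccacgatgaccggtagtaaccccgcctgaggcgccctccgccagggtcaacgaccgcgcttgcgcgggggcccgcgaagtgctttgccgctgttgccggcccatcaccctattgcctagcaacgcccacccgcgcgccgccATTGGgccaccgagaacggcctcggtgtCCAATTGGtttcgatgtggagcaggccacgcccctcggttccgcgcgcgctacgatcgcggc
Acly, chr11:100528001-100528250, minus strand: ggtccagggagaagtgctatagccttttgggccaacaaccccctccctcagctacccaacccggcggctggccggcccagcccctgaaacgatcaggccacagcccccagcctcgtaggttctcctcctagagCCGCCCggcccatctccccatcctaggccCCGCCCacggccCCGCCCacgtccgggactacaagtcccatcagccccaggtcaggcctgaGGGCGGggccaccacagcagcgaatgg
Mlxipl, the second listed start, chr5:135089640-135089889, plus strand: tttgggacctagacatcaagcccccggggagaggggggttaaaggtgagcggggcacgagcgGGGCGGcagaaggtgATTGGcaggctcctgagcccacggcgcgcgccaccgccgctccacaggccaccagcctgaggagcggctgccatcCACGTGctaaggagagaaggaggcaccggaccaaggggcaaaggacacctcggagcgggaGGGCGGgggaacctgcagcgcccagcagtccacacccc
Srebf1, the third listed start, chr11:60210472-60210721, minus strand: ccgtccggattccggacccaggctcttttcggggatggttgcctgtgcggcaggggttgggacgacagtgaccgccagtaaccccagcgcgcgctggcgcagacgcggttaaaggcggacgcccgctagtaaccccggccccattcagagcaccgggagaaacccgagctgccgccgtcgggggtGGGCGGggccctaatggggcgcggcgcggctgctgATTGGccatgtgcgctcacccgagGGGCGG

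Fasn held 3 CCAAT boxes, and 2 of them, on opposite strands, overlap at 62 to 55 bases before the start. Acly held 4 GC boxes and no CCAAT box. The second start of Mlxipl held 1 CCAAT box, 2 GC boxes and 1 E-box, and the third start of Srebf1 held 1 CCAAT box and 2 GC boxes. CCAAT was found at 6 of the 11 starts and in 33.8% of the 32851 promoters searched, GGGCGG at 4 of 11 and in 32.7%, CACGTG at 1 of 11 and in 6.02%, and TCACNCCAC at 1 of 11, the first listed start of Mlxipl, and in 1.05%. No match of these letters was found before the starts of Acaca and Elovl6. A match is a string of letters and not a site of binding.

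Acly, Acaca and Acacb supply the building blocks of fatty acids. Acly, which makes acetyl-CoA from citrate, had a lowest, median and highest level of 266, 641 and 2124 normalized CPM in sham and 287, 407 and 685 in AVF. The high sham values were those of #16 and #22, while #18 was the lowest of all 12 and #17 lay beside the lowest AVF sample, #06, so the groups overlapped. The fitted log2 fold change was -1.12 ± 0.49 (SE, n = 6 against 6; adjusted p = 0.135). Acaca, the cytosolic enzyme that makes the malonyl-CoA used by Fasn, had 239, 727 and 1690 in sham and 313, 400 and 867 in AVF. Its 2 highest and its 2 lowest samples were all sham, and its log2 fold change was -0.82 ± 0.48 (adjusted p = 0.266). Acacb, the mitochondrial form whose malonyl-CoA restrains fatty acid oxidation, had 71.1, 190 and 303 in sham and 48.0, 70.7 and 163 in AVF. Here 3 AVF samples (#06, #07 and #11) lay below every sham sample and 3 sham samples (#16, #19 and #22) above every AVF sample. For Acacb the log2 fold change was -1.11 ± 0.38 (adjusted p = 0.0685).

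Fasn, Elovl6 and Scd1 build, lengthen and desaturate the chain. Fasn, the synthase that makes palmitate, had 353, 1394 and 3326 normalized CPM in sham and 537, 682 and 1871 in AVF. Its highest and lowest samples, #22 and #17, were both sham and differed 9.43-fold, against 3.49-fold between the AVF samples #04 and #06. Its log2 fold change was -0.74 ± 0.53 (adjusted p = 0.359). Elovl6, which lengthens palmitate to stearate, had 65.4, 435 and 962 in sham and 55.1, 110 and 340 in AVF. It had the largest fold range of the 10 genes in sham, 14.7, with 4 sham samples from 280 to 962 and the other 2, #17 and #18, at 74.1 and 65.4. With -1.60 ± 0.65, Elovl6 had the largest log2 fold change of the 10 in size (adjusted p = 0.115). Scd1, the desaturase that makes oleate, had 4396, 12630 and 24230 in sham and 2967, 5206 and 15800 in AVF. The sham samples #16, #19 and #22, at 19090 to 24230, lay above every AVF sample, and #23 was among the low samples with 5177. In AVF #09 and #04 were highest. The change in Scd1 was -0.88 ± 0.53 on the log2 scale (adjusted p = 0.276).

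Dgat2 and Thrsp stand at the end and at the side of the pathway. Dgat2, which joins the last fatty acid to make triglyceride, had 181, 310 and 590 normalized CPM in sham and 48.2, 182 and 332 in AVF. Samples #05, #07 and #11 lay below every sham sample, with #11 the lowest. The difference on the log2 scale was -0.95 ± 0.39 (adjusted p = 0.118). Thrsp, the Spot 14 protein that accompanies lipogenesis and responds to thyroid hormone, had 140, 368 and 781 in sham and 111, 257 and 384 in AVF. The sham samples #17 and #18 were again low, each below at least 4 of the AVF samples. Here the log2 fold change was -0.75 ± 0.43 (adjusted p = 0.255).

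The transcription factor genes Mlxipl and Srebf1 differed in pattern. Mlxipl, which encodes ChREBP, had 17.4, 42.4 and 66.4 normalized CPM in sham and 8.25, 14.6 and 27.4 in AVF. The 4 AVF samples #05, #06, #07 and #11 lay below every sham sample, and the 4 sham samples #16, #19, #22 and #23 lay above every AVF sample. The log2 fold change was -1.30 ± 0.41, and the adjusted p of 0.0512 was the lowest of the 10 genes and just above the threshold. Srebf1, which encodes SREBP-1, had 29.5, 39.7 and 49.5 in sham and 25.7, 29.8 and 66.9 in AVF. The highest sample of all 12 was the AVF sample #04, and the 3 lowest were the AVF females #07, #09 and #11. The log2 fold change was -0.05 ± 0.24 (adjusted p = 0.908) and became 0.11 without #05 and #09. The mRNA does not show how much SREBP-1 is cleaved to its active form.

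**Figure D2:**
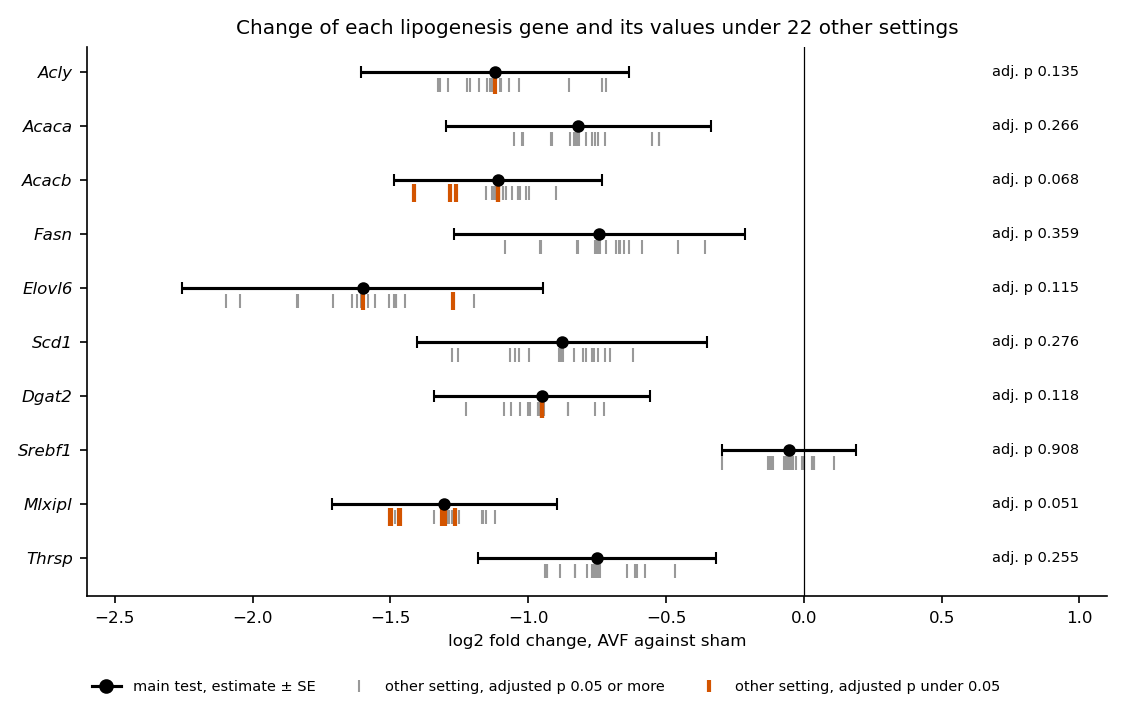
Log2 fold change of each gene in AVF against sham with its SE (black), its adjusted p by edgeR's quasi-likelihood test at the right, and below each the values under 22 other settings, orange where the adjusted p was under 0.05. For 9 of the 10 genes every value lies below 0, and Srebf1 lies around 0.

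Without #05 and #09, 0 of the 10 genes passed, with adjusted p values of 0.0818 for Mlxipl, 0.106 for Elovl6, 0.164 for Acacb and 0.190 to 0.824 for the others by edgeR's quasi-likelihood test. The log2 fold change of Elovl6 was then -2.05 ± 0.73 and that of Scd1 -1.25 ± 0.58. Single samples at the extremes of a group moved the calls. Acacb and Mlxipl both passed when #04 was left out (adjusted p = 0.0266 and 0.0412), when #17 was left out (0.0386 and 0.0359) and when #18 was left out (0.0457 and 0.0359). Leaving out a high sham sample brought some values nearer to 0: without #22 the log2 fold change was -0.36 for Fasn, -0.47 for Thrsp and -0.52 for Acaca, and without #16 it was -0.72 for Acly. Mlxipl alone passed when #09 was left out (adjusted p = 0.0418). The other tests counted more. With edgeR's exact test, the one the study used, 5 genes were called lower (Acly, Acacb, Elovl6, Dgat2 and Mlxipl, adjusted p 0.00498 to 0.0449). DESeq2 called 3 (Acacb, Dgat2 and Mlxipl, adjusted p 0.00664 to 0.0461). The share of all tested genes called by these 2 tests was not counted.

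The levels of the genes spanned more than 2 orders of magnitude when compared per length. The mean normalized CPM per kilobase of merged exons in sham was 1849 ± 1251 (SD, n = 6) for Scd1, 186 ± 119 for Thrsp, 131 ± 99.0 for Fasn and 65.6 ± 54.5 for Acly. It was 56.9 ± 25.5 for Dgat2, 50.5 ± 41.5 for Elovl6, 47.6 ± 35.0 for Acaca and 17.7 ± 9.06 for Acacb. Srebf1 and Mlxipl, the transcription factor genes, came last with 6.63 ± 1.41 and 5.93 ± 3.03. Of neighbours in this order, Scd1 and Thrsp, and Acacb and Srebf1, differed by more than the larger SD of the pair, and the other neighbours differed by less. In AVF the order was the same except that Acaca, with 27.0 ± 11.7, stood above Elovl6, with 16.7 ± 12.3. Merged exons count every annotated exon of a gene, so these levels can be lower than those per length of 1 transcript.

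Apart from Srebf1, the genes varied together over the 12 samples, and Elovl6 did so less within AVF. After subtracting the mean of each operation group from log2 normalized CPM, Pearson's r over the 12 samples was 0.59 to 0.99 for the 36 pairs of genes without Srebf1, with a median of 0.85. Fasn and Acaca had the highest r, 0.99. The 9 pairs with Srebf1 had r of 0.06 to 0.66, lowest with Elovl6 and highest with Dgat2. Taken within the AVF samples alone, Elovl6 had r of 0.298 with Thrsp, 0.315 with Dgat2, 0.361 with Acacb and 0.477 with Mlxipl. The same pairs had 0.981, 0.934, 0.991 and 0.911 within sham. Srebf1 ranged within AVF from -0.311 with Elovl6 to 0.733 with Acacb. Within the AVF samples, #04 was highest for 8 of the 10 genes and #09 for Elovl6 and Scd1. Sample #11 was lowest for 5 genes and #06 for 4. These correlations describe 12 libraries, and their points share the library, its depth and the cell makeup of the sample.

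The genes most like each member were sought among all 15912. Pgd, an enzyme of the pentose phosphate pathway that yields NADPH, was the most like Acly (r = 0.97) and Acaca (r = 0.99). Tkt, of the same pathway, followed for Acaca (r = 0.99) and was second for Fasn (r = 0.99). The third for Acly was Acss2, which makes acetyl-CoA from acetate (r = 0.97), and the third for Fasn was Pcx, pyruvate carboxylase (r = 0.98). Acacb was most like Lipe, hormone-sensitive lipase (r = 0.97), with Fasn next, and Dgat2 most like Nrg4, a factor secreted by brown fat (r = 0.97). Mlxipl was nearest to Lonp2 (r = 0.96) and to Cebpa, a transcription factor of fat cell differentiation (r = 0.94). Elovl6 was nearest to Slc25a44, a mitochondrial carrier of branched-chain amino acids (r = 0.97), Scd1 to Hint3 (r = 0.98) and Thrsp to Dhrs7 (r = 0.98). For Srebf1 the nearest was Akt2, a kinase of insulin signalling, at a lower r of 0.90.

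**Figure D3:**
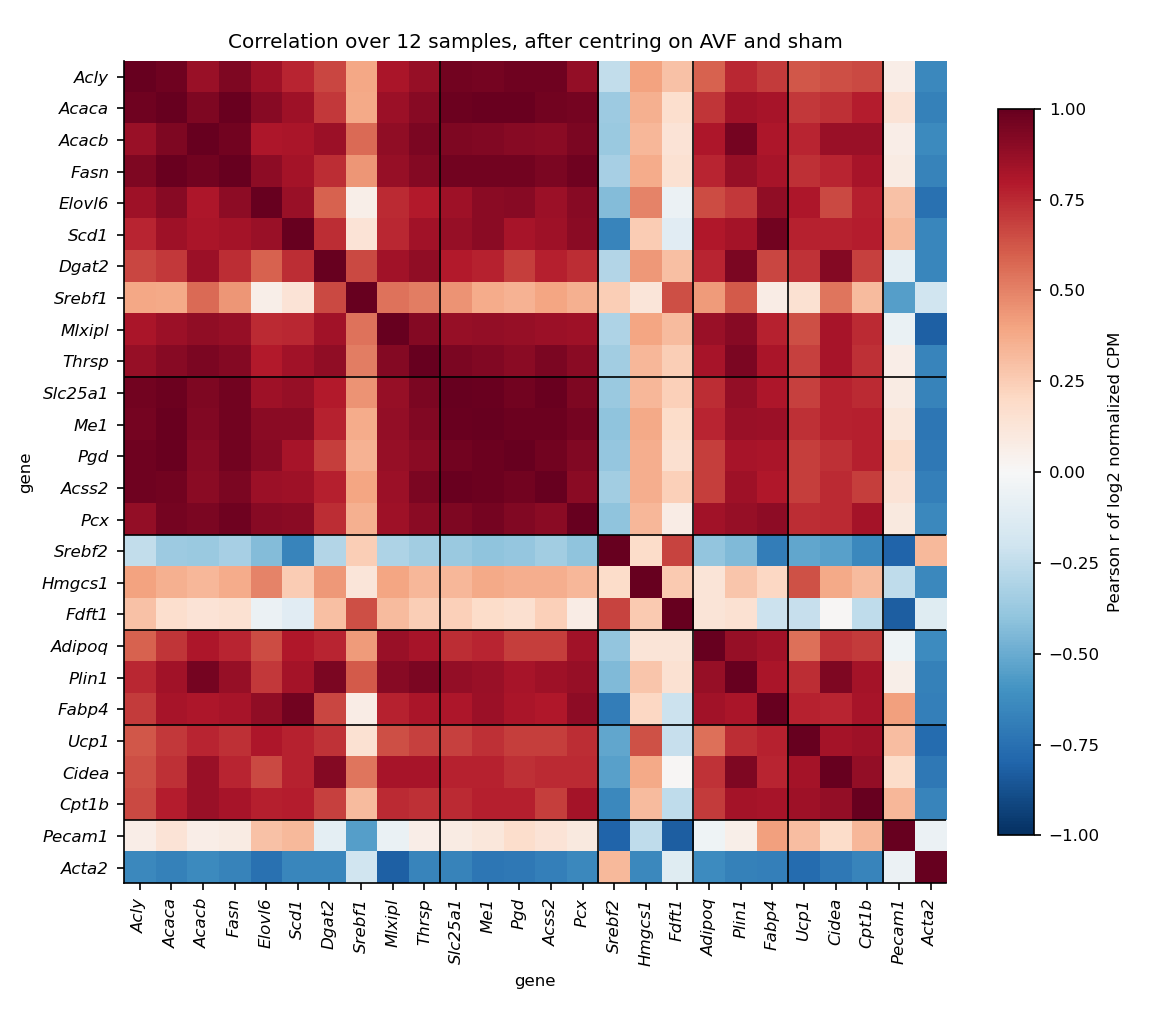
Pearson r over the 12 samples of log2 normalized CPM centred on AVF and sham, for the 10 lipogenesis genes, 5 genes of carbon and NADPH supply, Srebf2 with 2 cholesterol genes, 3 white fat markers, 3 brown fat markers and 2 vessel wall markers, in blocks split by lines. The lipogenesis genes other than Srebf1, the 5 supply genes drawn and the fat markers are red together, while Acta2 of smooth muscle is blue against all 10. The supply genes G6pdx, Idh1 and Pdha1 are not drawn, and Pgd, Acss2 and Pcx were among the genes most like a lipogenesis gene. Pecam1 of endothelium ranges from -0.55 with Srebf1 to 0.33 with Scd1.

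Markers of fat moved with the same samples. The summed white adipocyte markers were lowest, median and highest at 3550, 5942 and 8179 normalized CPM in sham and 3720, 4771 and 8292 in AVF. Samples #17 and #18 were the lowest in sham, as for most of the lipogenesis genes, and #09 and #04 the highest in AVF. With the log2 of this sum, centred in the same way, the 10 genes had r of 0.27 (Srebf1) and 0.72 (Acly) to 0.95 (Scd1) over the 12 samples. Fabp4 had the highest mean level of the 10 markers, 3777 in sham and 3242 in AVF, and so weighed most in the sum. With Fabp4 alone r was 0.07 (Srebf1) and 0.67 (Dgat2) to 0.97 (Scd1). With Adipoq alone r was 0.43 (Srebf1) and 0.59 (Acly) to 0.865 (Mlxipl). In the same test 1 of these 10 markers was lower in AVF, Slc2a4, the insulin-responsive glucose transporter (-0.98 ± 0.29 on the log2 scale, adjusted p = 0.0421). That call was lost without #05, #06, #07, #09, #11, #16, #19, #22 or #23 (adjusted p 0.0581 to 0.102). The fat cell marker Adipoq, the adiponectin gene, had 271, 387 and 531 in sham and 264, 391 and 573 in AVF. Its log2 fold change in the same test was 0.08 ± 0.21 (adjusted p = 0.830), and -0.03 without #05 and #09. The median log2 fold change of the 10 white markers was -0.03. Whether the white list tells white from brown fat in these samples was not tested. The part of fat content in the levels of the lipogenesis genes was not tested.

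Most brown adipocyte markers were lower in AVF. The 10 markers gave 6 lower and 0 higher calls with edgeR's quasi-likelihood test, where 5.13% of all tested genes were lower. Of the 6, Kcnk3, Cpt1b and Prdm16 were also called without #05 and #09 and Cidea was not (adjusted p = 0.0523). Cox8b and Otop1 were not examined without these samples. Ucp1, Dio2, Ppargc1a and Elovl3 were not called (adjusted p 0.0573 to 0.439). The 10 markers had a median log2 fold change of -1.87. Their sum was 234, 934 and 2114 normalized CPM in sham and 98.7, 280 and 417 in AVF. Ucp1 and Dio2 had the highest mean levels of the 10 in sham, 407 and 156. Kcnk3, a potassium channel, had 82.6, 115 and 163 in sham and 36.7, 52.9 and 72.0 in AVF, with no overlap and a log2 fold change of -1.14 ± 0.20 (adjusted p = 0.00336). Cpt1b, which admits fatty acids to mitochondria, was at -2.35 ± 0.47 on the log2 scale (adjusted p = 0.00788). Ucp1, the uncoupling protein of brown fat, had 22.9, 354 and 1087 in sham and 1.69, 60.4 and 121 in AVF, and did not pass (log2 fold change -2.83 ± 1.01, adjusted p = 0.0790), while it passed with edgeR's exact test (adjusted p = 0.00615) and DESeq2 (adjusted p = 0.0225). The centred correlation with the summed brown markers was 0.20 for Srebf1 and 0.70 (Mlxipl) to 0.90 (Elovl6) for the others. Whether the called markers came from brown fat cells alone was not tested. The part of brown fat in the lower levels of the lipogenesis genes was not tested. Hepatocyte markers were at 5.29 normalized CPM or less in sum in each sham sample.

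Within a library, a ratio to a fat cell gene does not depend on scaling. The ratio of Fasn to Adipoq counts, chosen after values were seen and given with no test, was 1.09, 3.25 and 6.26 in sham and 1.35, 1.93 and 3.29 in AVF. The ratio of Elovl6 to Adipoq was 0.229, 0.998 and 1.81 in sham and 0.139, 0.235 and 0.611 in AVF. The sham samples #16 and #22 had the highest ratios of both genes, and #17 and #18 the lowest of the sham group.

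**Figure D4:**
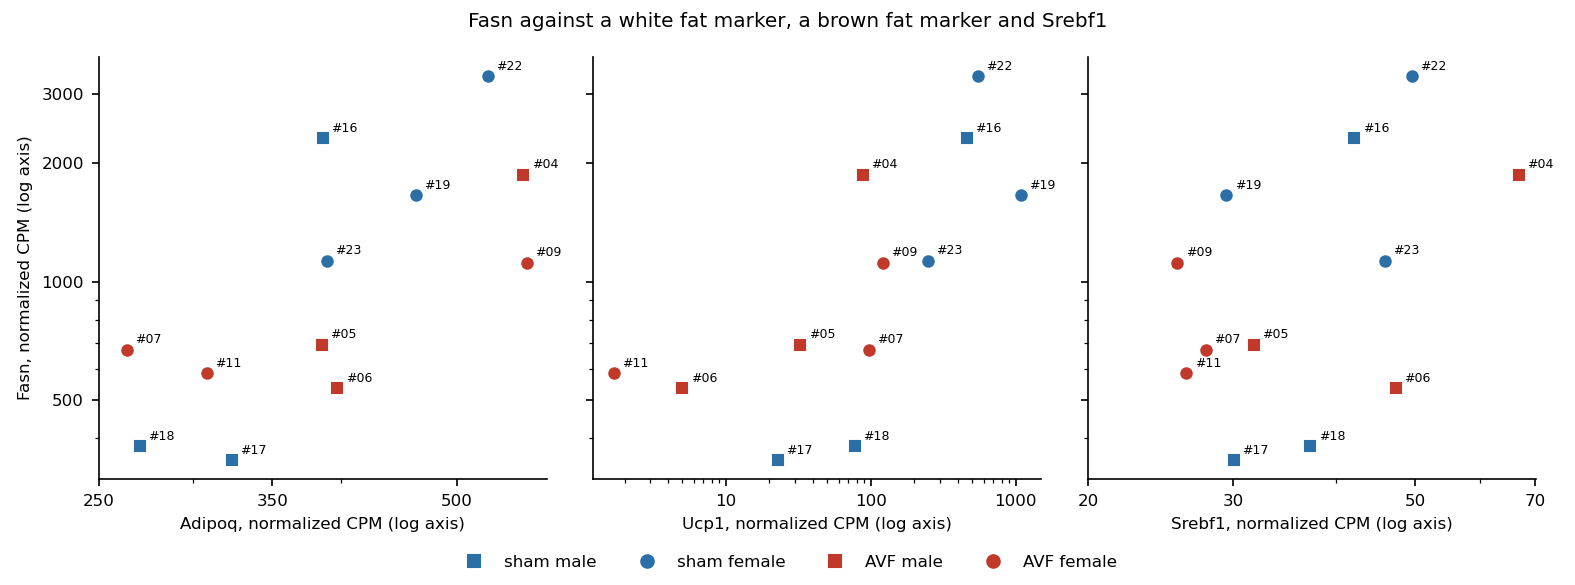
Fasn against Adipoq, Ucp1 and Srebf1 in normalized CPM (log axes), 1 point per sample, sham in blue and AVF in red, squares for males and circles for females. Samples #22 and #16, the highest in Fasn, were exceeded in Ucp1 by #19 alone, while Srebf1 does not order the samples in the same way.

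Other genes of lipid synthesis were taken from 4 lists of 58 genes. Of these 57 were tested, and 1 was lower and 3 higher in AVF by edgeR's quasi-likelihood test, where 5.13% of all tested genes were lower and 8.63% higher. The lists were carbon and NADPH supply, elongation and desaturation, acyl-CoA and triglyceride assembly, and lipogenic regulators, and their median log2 fold change together was -0.24. Of the 8 genes of carbon and NADPH supply 0 were called, and 7 of the fitted changes were below 0. At an unadjusted p under 0.05, 2413 of all 15912 tested genes were lower in AVF and 2610 were higher. Among the supply genes the count was 1, Pdha1 of pyruvate dehydrogenase, at -0.85 ± 0.29 (adjusted p = 0.0706). It was called when #17 or #18 was left out (adjusted p 0.0382 to 0.0407), with edgeR's exact test (adjusted p = 0.0165) and with DESeq2 (adjusted p = 0.0199). Slc25a1, the citrate carrier that feeds Acly, was at -0.67 ± 0.40 and Acss2 at -0.79 ± 0.46. G6pdx, the first enzyme of the pentose phosphate pathway, was at -0.38 ± 0.21.

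Among 13 genes of elongation and desaturation, of which Elovl3 was also on the brown adipocyte list, Elovl1 rose and no other gene was called. Elovl1, which lengthens very long chains rather than palmitate, had 21.6, 24.8 and 30.4 normalized CPM in sham and 33.4, 35.1 and 35.7 in AVF, without overlap, and a log2 fold change of 0.47 ± 0.08 (adjusted p = 0.00432). This was the opposite sign to Elovl6, and the difference between the 2 changes was not tested. Scd2, a relative of Scd1, was at -0.39 ± 0.19 (adjusted p = 0.174), Tecr, the last enzyme of the elongation cycle, at -0.35 ± 0.14 (adjusted p = 0.0995) and Elovl7 at -0.62 ± 0.25 (adjusted p = 0.106). Scd2 was called without #19 (adjusted p = 0.0292) and Elovl7 without #07 (adjusted p = 0.0190).

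Of the 15 tested genes of acyl-CoA and triglyceride assembly, 0 were called, with 2 lower and 1 higher at an unadjusted p under 0.05. At that threshold 2413 of all 15912 tested genes were lower and 2610 were higher. Acsl3, an acyl-CoA synthetase of lipid droplets, was at -0.45 ± 0.14 (adjusted p = 0.0514) and passed without #06 or #19 (adjusted p 0.0108 to 0.0499) and with DESeq2 (adjusted p = 0.0242). Lpin2, a phosphatidate phosphatase, was at 0.38 ± 0.14 (adjusted p = 0.0799) and passed without #04 (adjusted p = 0.0420) and with DESeq2 (adjusted p = 0.0452). Agpat3 and Acsl5 were at -0.35 ± 0.15 and -0.33 ± 0.16. Dgat1, the other enzyme of the step of Dgat2, was at -0.20 ± 0.32 (adjusted p = 0.715), a gene outside the naming rule and chosen after values were seen.

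Of 21 lipogenic regulators, Prkab2 and Rxra rose and Mid1ip1 fell. Prkab2, a subunit of the kinase AMPK, which phosphorylates both acetyl-CoA carboxylases, had 42.1, 45.2 and 47.4 normalized CPM in sham and 54.6, 59.3 and 67.8 in AVF, without overlap (log2 fold change 0.42 ± 0.07, adjusted p = 0.00257). The sister subunit Prkab1 was at -0.30 ± 0.09 (adjusted p = 0.0537) and passed without #09 (adjusted p = 0.0466) and with DESeq2 (adjusted p = 0.0395). Rxra, the partner of the LXR and PPAR receptors, was at 0.36 ± 0.10 (adjusted p = 0.0324), a call lost without #04, #05, #11, #16, #17, #18, #22 or #23 (adjusted p 0.0538 to 0.0787). Mid1ip1, a paralog of Thrsp that promotes polymerization of acetyl-CoA carboxylase, had 28.9, 37.7 and 44.3 in sham and 24.7, 28.4 and 35.8 in AVF (log2 fold change -0.36 ± 0.11, adjusted p = 0.0488). Its call was lost without each of 10 samples, all but #06 and #19 (adjusted p 0.0680 to 0.109). Without both #05 and #09, the calls of Rxra and Mid1ip1 were lost and those of Elovl1 and Prkab2 remained.

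Cholesterol synthesis, a route governed by SREBP-2, gave 2 called genes of 18. Both were lower and 0 were higher, where 5.13% of all tested genes were lower and 8.63% higher. Fdft1, squalene synthase, had 41.3, 75.6 and 99.0 normalized CPM in sham and 38.4, 41.6 and 52.2 in AVF, and its log2 fold change was -0.76 ± 0.17 (adjusted p = 0.0136). Only #19 of the sham samples lay among the AVF values. Hmgcs1, which makes the precursor of mevalonate, had 169, 212 and 240 in sham and 129, 157 and 187 in AVF (log2 fold change -0.41 ± 0.12, adjusted p = 0.0369). Its call was lost without #04, #05, #06, #11, #16, #18, #22 or #23 (adjusted p 0.0520 to 0.0787), and both calls were lost without #05 and #09 together (adjusted p = 0.0562 and 0.0581). Fdps was at -0.48 ± 0.20 (adjusted p = 0.116, and 0.0409 without #19) and Lss at -0.37 ± 0.18. The median log2 fold change of the 18 was -0.25, and Fdft1 and Hmgcs1 had centred r of 0.15 and 0.37 with Fasn.

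**Figure D5:**
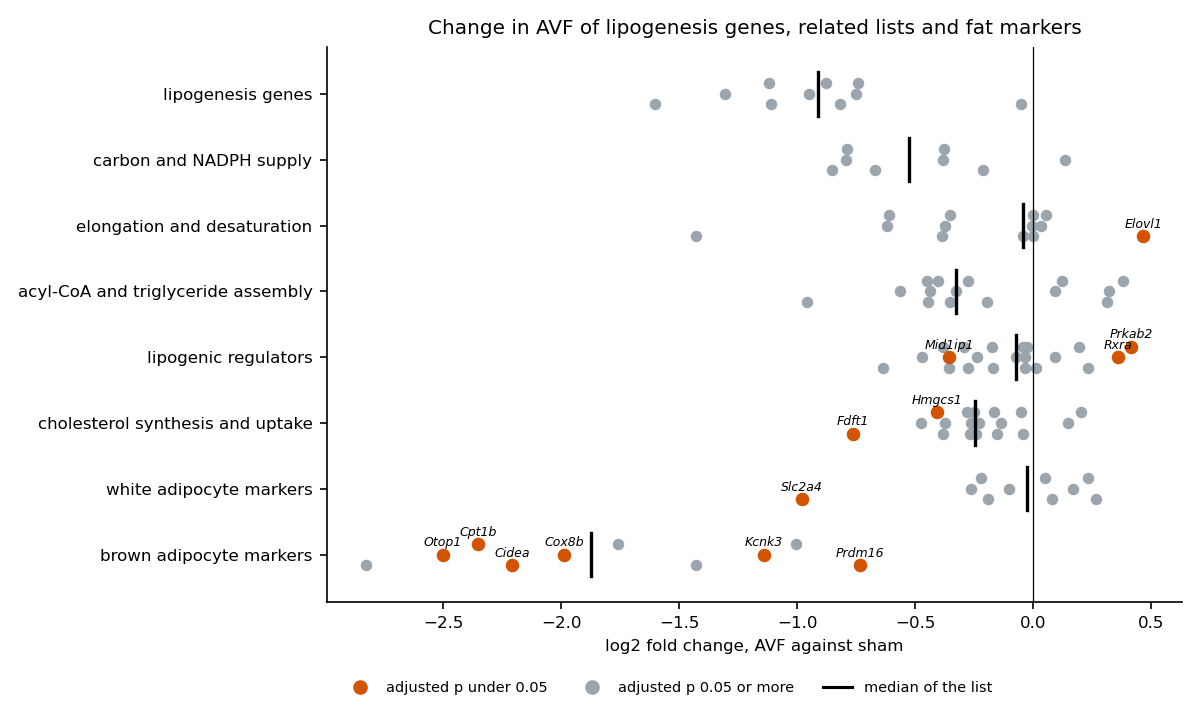
Log2 fold change in AVF against sham of each gene in 8 lists, orange and named where the adjusted p was under 0.05 by edgeR's quasi-likelihood test, with a line at the median of each list. The lipogenesis genes have the second lowest median, -0.91, after the brown adipocyte markers at -1.87, and hold no called gene, and the white adipocyte markers lie around 0.

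Macrophage markers also differed between the groups. Of 5 macrophage markers, 4 were higher in AVF, where 8.63% of all tested genes were. Their sum was 478, 719 and 813 normalized CPM in sham and 945, 1094 and 1489 in AVF. Lyz2, for lysozyme, was at 0.84 ± 0.16 on the log2 scale (adjusted p = 0.00697). Cd68, at 0.83 ± 0.21 (adjusted p = 0.0238), was not called without #11 (adjusted p = 0.0501). None of the 8 vessel wall markers was called, and 0 had an unadjusted p under 0.05 by edgeR's quasi-likelihood test. The summed vessel wall markers had centred r of -0.28 (Srebf1) to -0.83 (Mlxipl) with the 10 genes. The markers within this sum differed. Acta2 of smooth muscle alone had r of -0.20 (Srebf1) to -0.815 (Mlxipl), and Pecam1 of endothelium had -0.55 (Srebf1) to 0.33 (Scd1). The part of vessel wall cells in the levels of the lipogenesis genes was not tested.

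The sexes were compared because the study asked whether female and male fistulas differ. None of the 10 genes differed between female and male AVF by edgeR's quasi-likelihood test on 22163 genes, of which 0.0226% were called, and 1 had an unadjusted p under 0.05. That gene was Srebf1, with 26.6 ± 1.09 normalized CPM (SD, n = 3) in females and 48.7 ± 17.6 in males. The female minus male difference on the log2 scale was -0.89 ± 0.26 (adjusted p = 0.979). Every AVF female lay below every AVF male. For the sexes, the share of all genes at an unadjusted p under 0.05 was not counted. Within sham 0 of the 10 were called, where 0.0451% of all genes were, and 0 had an unadjusted p under 0.05. All 10 nevertheless had a higher fitted level in sham females, as for Fasn, with 2038 ± 1146 in females and 1017 ± 1124 in males (log2 fold change 1.02 ± 0.74, adjusted p = 0.792). The male mean joined #16, at 2315, with #17 and #18, at 353 and 383. The genes other than Srebf1 varied together from mouse to mouse, so the equal signs in sham are not separate observations.

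The difference between the sexes in the change with the fistula passed the adjusted threshold for 0 of the 10 genes, and for 0% of all genes tested. At an unadjusted p under 0.05 the count was 1 of 10, Srebf1, for which the change in females minus the change in males was -1.11 ± 0.37 on the log2 scale (adjusted p = 0.960). All 10 values had the same sign, toward a lower ratio of AVF to sham in females, from -0.27 ± 1.17 for Elovl6 to -1.45 ± 0.72 for Dgat2. Since the genes other than Srebf1 varied together from mouse to mouse, these signs are not separate observations. With 3 mice in each group, the SE of this difference was 0.37 for Srebf1 and up to 1.17 for Elovl6. The share of all genes at an unadjusted p under 0.05 was not counted here either.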

How the data were processed

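RNA-seq libraries of the IVC of 12 mice were analysed, 6 AVF and 6 sham. The authors trimmed poly A and poly T tails with PRINSEQ and removed adapters and low-quality sequence with Trimmomatic 0.39. They mapped the reads by STAR 2.7.7a to GRCm39 with an Ensembl annotation. They deposited RSEM 1.3.3 expected counts, which share reads between similar genes, without normalization. Gene names and lengths came from GENCODE M39 on GRCm39. Total counts were 15177881 to 22717423 per library, and limits from counts cover counting error only.

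Counts were rounded and TMM-normalized in edgeR 4.0.16 (R 4.3.3). AVF was compared with sham by edgeR's quasi-likelihood test on the 15912 genes above 1 CPM in 2 or more samples, and the sexes in 1 fit of 4 means on the 22163 genes with over 12 counts in the 12 samples together. Genes were called at an adjusted p under 0.05 (Benjamini-Hochberg over all tested genes). SE is the size of the log2 fold change divided by the square root of the F statistic. The fit was tested on simulated data. Alternatives were edgeR's exact test, DESeq2 1.42.0, RLE size factors, other filters, unrounded counts, sex as a covariate, a replicate block, and samples or ribosomal RNA genes left out. Of these, edgeR's exact test was the one the study used for AVF against sham. Correlations used log2 normalized CPM with a prior count of 1. Libraries of the same group and sex differed by more than counting error (chi-square over degrees of freedom 36.8 to 613), so each counted as 1 sample.

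The 10 genes, the lists and the tests were chosen with earlier results of these data known. Named genes were the 10, the up to 4 genes of each other list with the lowest adjusted p, defining markers, and the 3 genes most correlated with each of the 10. The ratio to Adipoq was added after values were seen. Results of 1 further list of cell type markers are not reported here.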

Additional observations from a re-analysis of the deposited data

How the results depend on the processing

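The count of lipogenesis genes lower in AVF was 0 as reported, 5 under the exact test of edgeR, 3 with DESeq2, 2 with a replicate block, 1 without ribosomal RNA genes and 0 to 2 without single samples; no alternative gave a gene higher in AVF. Of the other lipid synthesis genes, 1 was lower, against 4 with DESeq2, 4 with the replicate block, 3 without ribosomal RNA genes, 0 with RLE size factors, either other filter or without #05 and #09, and 0 to 3 without single samples; the 3 higher became 2 to 4. Of the cholesterol genes, 2 were lower, against 1 with the exact test, without a filter and with the replicate block, 0 without #05 and #09, and 1 to 4 without single samples. Where a call changed, the cause was not tested. The share of all genes called was counted for the tests as reported and for no alternative. All 9 lipogenesis genes other than Srebf1 kept a negative log2 fold change in 22 of 22 alternatives, while its size moved: Fasn ranged from -1.083 to -0.359, Acly from -1.327 to -0.718, Acaca from -1.051 to -0.524 and Thrsp from -0.941 to -0.466. Srebf1, at -0.05, was 0.111 without #05 and #09 and ranged from -0.296 to 0.036 without single samples, above 0 without #07, #09, #11, #22 or #23. Adipoq, at 0.08, was -0.034 without #05 and #09 and ranged from -0.038 to 0.196 without single samples, below 0 without #04, #09 or #18. The counts for the sexes and the interaction stayed at 0 in 17 of 17 alternatives each, DESeq2 included. The 20 group means of the 10 genes moved by less than 1 SD without TMM factors. Mice with the same number and sex were taken as pairs in the block: deviations from the group means correlated at over 0.1 in 3 of 6 pairs (-0.13 to 0.25), and not every sample correlated best with its own number, so the numbers were not taken to pair the mice. The block called Elovl6 (-1.27, adjusted p = 0.0464) and Mlxipl (-1.27, adjusted p = 0.0355), and of the other lipid synthesis genes also Acsl3, Pdha1 and Tecr (adjusted p = 0.0400, 0.0344 and 0.0418). The interaction within the samples of 1 operation was not run, since it needs both. Library #07 held 8196603 counts outside ribosomal RNA genes, the least of the 12.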
